A study of Homo sapiens with 192 samples.

Results

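A set of 10 genes of prostaglandin metabolism and signalling was followed in a panel of human colorectal cancer (CRC) cell lines: PLA2G4A, PTGS1, PTGS2, PTGES, PTGES2, PTGES3, SLCO2A1, HPGD, PTGER2 and PTGER4. They were chosen by name, with earlier results of these data known. Each was matched through its Ensembl identifier to 1 of the 58243 genes listed in the count tables. RNA sequencing covered HT29, LS513, HCT116 and LS174T cells, established lines derived from human colorectal tumors, each grown either in 2D or in 3D. Every line and growth condition was represented by 3 libraries, which made 8 groups and 24 libraries. The labels name no drug and no engineered change for any group, so a 3D group and its 2D group differ by label in growth condition only. The labels do not say how the 3D cultures were formed for sequencing or how long they were kept, nor whether the 3 libraries of a group came from separate cultures, so the p-values measure the spread between libraries, which may be technical. HCT116 was kept in another medium than the other lines according to the study's methods, so line and medium cannot be told apart for it.

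Prostaglandin E2 is a lipid messenger made from arachidonic acid. Phospholipase A2 releases arachidonic acid from membranes, the cyclooxygenases PTGS1 and PTGS2 turn it into prostaglandin H2, and terminal synthases isomerise this to prostaglandin E2. The product is taken up by the transporter SLCO2A1, inactivated by the dehydrogenase HPGD, and sensed by receptors such as PTGER2 and PTGER4, which raise cyclic AMP. In the colon, PTGS2 is the inducible target of aspirin-like drugs and is often raised in tumors, whereas HPGD is often reduced in them.

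Libraries held 18723942 to 34277421 counted reads, with a median of 30777613.5, and HT29 2D replicate 3 was the shallowest. Levels are given in CPM, the counts of a gene per library scaled to a common total, on a scale set by TMM, a correction for differences in RNA composition, and 3 counts in a library were taken as the floor, which was 0.0875 to 0.160 CPM before that correction. Values of single libraries stand in order of replicate (1, 3 and 4 for HT29 3D, otherwise 1, 2 and 3). A gene is called detected in a group when all 3 libraries exceeded this floor, which covers counting error only. All 10 of the colorectal epithelial markers examined were detected in HT29, LS513 and LS174T in both conditions, but in HCT116 CDX1 was not (0 to 1 reads), LGALS4 was not in 2D (3 to 6 reads) and VIL1 had only 4 to 9 reads. The list summed to 3574 CPM or more in every library, and by mean level the keratins KRT8 and KRT18 outweighed its other genes in all groups but LS513 3D and LS174T 3D. Of 8 fibroblast markers 5 never exceeded the floor (COL1A2, COL3A1, DCN, LUM and THY1), and the list summed to 0.653 to 22.1 CPM, highest in HCT116. Of 8 leukocyte markers 3 never exceeded it (PTPRC, CD3E and CD163), and of 6 endothelial markers CLDN5 did not, that list summing to at most 3.19 CPM. In HT29 the leukocyte list summed to 6.85 to 8.12 CPM in 2D and 12.9 to 17.9 CPM in 3D, of which CD14 made up a mean of 6.11 and 12.7 CPM, and its part in the HT29 results was not tested. Epithelial markers also moved with growth condition: 6 were higher and 1 lower in 3D in HT29, 7 were higher in LS513, and 4 were higher in HCT116 and in LS174T, beside 21.1%, 13.7%, 16.8% and 13.1% of all genes tested that were higher in these lines and 19.6% that were lower in HT29. RNA came from whole cultures, so fewer cells expressing a gene and less RNA per cell cannot be told apart.

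The genes lie on several chromosomes (GRCh38, GENCODE 29 gene models). PTGS2 (chromosome 1, 186671791 to 186680427, minus strand) and PLA2G4A (chromosome 1, 186828953 to 186988981, plus strand) are neighbors separated by 148525 bases. PTGS1 (122370530 to 122395703, plus strand), PTGES (129738331 to 129753047, minus strand) and PTGES2 (128120693 to 128128462, minus strand) are all on chromosome 9. PTGES3 is on chromosome 12 (56663341 to 56688408, minus strand), SLCO2A1 on chromosome 3 (133928145 to 134052184, minus strand) and HPGD on chromosome 4 (174490177 to 174523154, minus strand). The receptor genes are PTGER2 on chromosome 14 (52314305 to 52328606, plus strand) and PTGER4 on chromosome 5 (40679498 to 40693735, plus strand). None of the 10 shared exonic bases with another annotated gene on either strand.

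The sequences before 3 transcription starts are shown because these genes behaved differently in what follows: PTGS2 differed most steeply between lines among the genes detected everywhere apart from HPGD, PTGES was high in HCT116 and near the floor in LS174T, and PTGES2 was nearly level across the panel. Each line holds the 250 bases before the RefSeq start (GRCh38.p14), 5′ to 3′ on the gene's own strand, at chr1:186680424-186680673 (minus) for PTGS2, chr9:129753043-129753292 (minus) for PTGES and chr9:128128441-128128690 (minus) for the first of 3 PTGES2 starts. Capitals mark matches, on either strand, to the TATA box motif searched as TATAAA, to the core of the cyclic AMP response element searched as TGACG, and to the GC box searched as GGGCGG.
PTGS2: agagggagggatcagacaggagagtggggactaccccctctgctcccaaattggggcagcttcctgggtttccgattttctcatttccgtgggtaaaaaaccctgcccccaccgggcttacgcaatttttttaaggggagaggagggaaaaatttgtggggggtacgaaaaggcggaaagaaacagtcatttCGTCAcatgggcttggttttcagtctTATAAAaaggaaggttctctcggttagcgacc
PTGES: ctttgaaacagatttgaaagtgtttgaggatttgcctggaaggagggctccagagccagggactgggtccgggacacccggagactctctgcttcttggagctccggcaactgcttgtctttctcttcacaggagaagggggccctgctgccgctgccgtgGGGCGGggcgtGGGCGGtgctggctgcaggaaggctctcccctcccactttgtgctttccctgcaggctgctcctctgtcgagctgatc
PTGES2: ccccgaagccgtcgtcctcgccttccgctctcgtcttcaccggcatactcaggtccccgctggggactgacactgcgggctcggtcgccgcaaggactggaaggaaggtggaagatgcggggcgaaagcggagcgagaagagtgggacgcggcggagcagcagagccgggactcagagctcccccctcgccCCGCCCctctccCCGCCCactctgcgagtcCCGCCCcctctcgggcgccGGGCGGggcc
Among the bases shown, PTGS2 held a TATA box beginning 32 bases before the start and a cyclic AMP response core beginning 58 bases before it, PTGES held 2 GC boxes and PTGES2 held 4. Among 35116 promoters of 300 bases (250 before and 50 after the start), 11.5% held the TATA box, 24.6% the cyclic AMP response core and 45.0% the GC box. In the same 300-base windows PTGS2 had 12 CG dinucleotides and PTGES 10, below the median of 14 over all promoters, whereas the first PTGES2 window had 35 and that of PTGES3 had 37. Of the other genes with an entry, PLA2G4A had 3, PTGS1 4 and 10 at its starts, HPGD 34 and 7, PTGER2 37 and PTGER4 30. A link between CG number and the spread between lines was not tested. A match describes letters only, and 9 of the 10 genes had an entry, the exception being SLCO2A1.

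**Figure D1:**
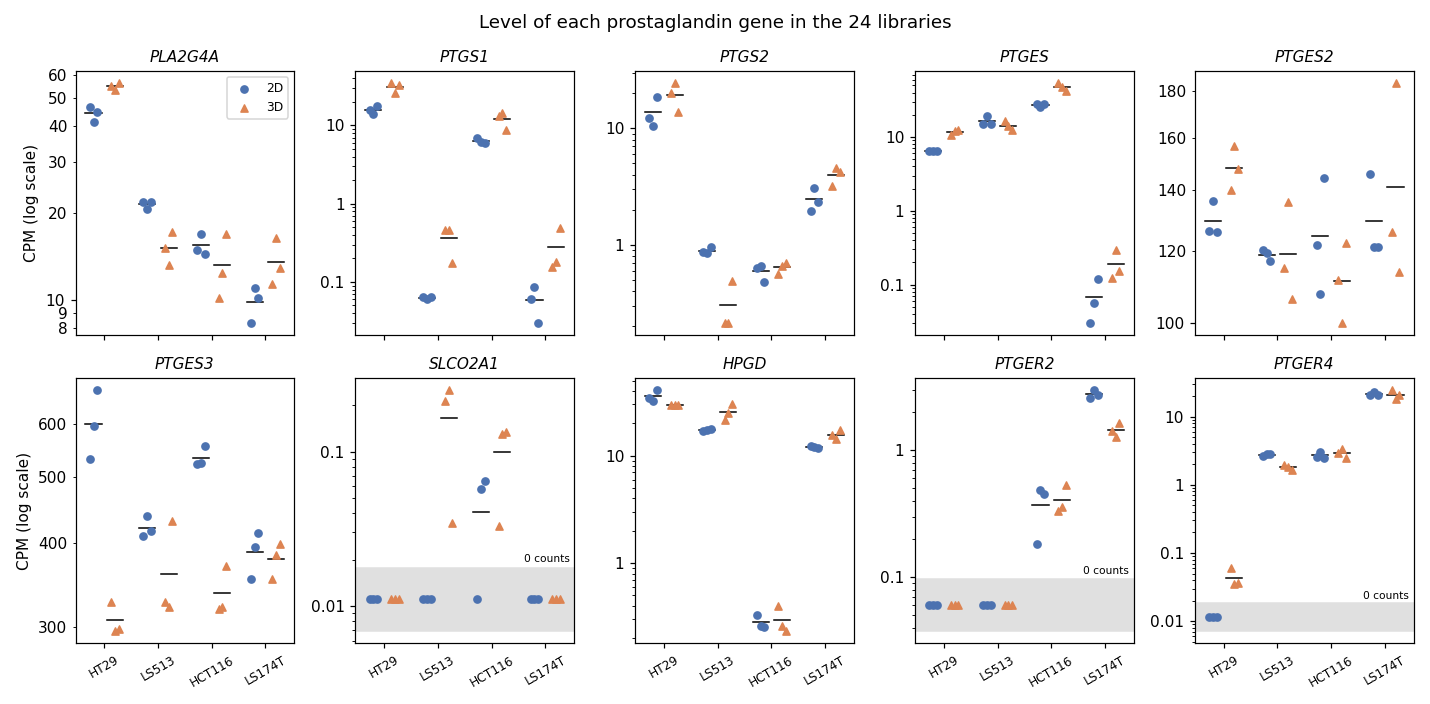
Level of each gene in every library, in CPM on a log scale that differs between panels, with circles for 2D, triangles for 3D and short lines for group means; libraries with 0 counts lie in the grey band. Group means of PTGES2 ran from 111 to 148 CPM and those of PTGES3 from 307 to 599 CPM, whereas those of HPGD ran from 0.283 to 35.9 CPM.

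Arachidonate release was represented by PLA2G4A, the cytosolic phospholipase A2, which was detected in all 8 groups. In 2D its levels in the 3 libraries were 46.5, 41.3 and 44.7 CPM in HT29, 21.9, 20.6 and 21.9 CPM in LS513, 14.9, 17.0 and 14.5 CPM in HCT116, and 8.31, 11.0 and 10.2 CPM in LS174T. In 3D they were 54.8, 53.4 and 56.4 CPM in HT29, 15.1, 13.3 and 17.2 CPM in LS513, 10.2, 12.4 and 17.0 CPM in HCT116, and 11.4, 16.4 and 12.9 CPM in LS174T. HT29 thus stood above every other line in both conditions, and 3D and 2D libraries did not overlap in HT29, LS513 or LS174T. The gene fell in LS513 3D (log2 difference -0.50 ± 0.15 SE, adjusted p = 0.0197) and rose in LS174T 3D (0.46 ± 0.16, adjusted p = 0.0368). In HT29 the difference was 0.31 ± 0.15 (adjusted p = 0.0954) and in HCT116 -0.23 ± 0.15 (adjusted p = 0.284), neither of which passed the threshold of 0.05. Without HCT116 3D replicate 3 the HCT116 difference was -0.48 (adjusted p = 0.0207), and the HT29 difference was called in 4 of 30 alternative fits, which used another scaling, filter, tool or set of libraries. Both called changes depended on single libraries. The LS513 call was lost without any of 4 of its own 6 libraries, and the LS174T call without any of 3. Without LS513 3D replicate 2 the LS513 difference was -0.42 (adjusted p = 0.114), and without LS174T 3D replicate 2 the LS174T difference was 0.31 (adjusted p = 0.230).

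PTGS1, the cyclooxygenase usually described as constitutive, was the gene of the set that was higher in 3D in all 4 lines. HT29 went from 15.7, 14.0 and 18.0 CPM in 2D to 35.1, 25.97 and 32.8 CPM in 3D, and HCT116 from 6.92, 6.07 and 5.94 CPM to 13.2, 14.5 and 8.86 CPM. In both lines every 3D library lay above every 2D library, with a 1.97-fold rise in HT29 (log2 difference 0.98 ± 0.20, adjusted p = 0.000395) and a 1.93-fold rise in HCT116 (0.95 ± 0.20, adjusted p = 0.00117). LS513 and LS174T barely expressed the gene. Their ratios pool the reads of each group, with intervals for counting error only, whereas each adjusted p is from the same test as above. In LS513 the counts were 2, 2 and 2 reads in 2D and 13, 13 and 5 reads in 3D, a ratio of 5.28 with a 95% counting interval of 2.17 to 15.5 (adjusted p = 0.00356). In LS174T they were 2, 3 and 1 reads in 2D and 5, 5 and 16 reads in 3D, a ratio of 4.40 with an interval of 1.77 to 13.1 (adjusted p = 0.0137). Replicate 3 held 16 of the 26 reads of LS174T 3D, and without it the log2 difference was 1.45 and the adjusted p 0.113; without 2D replicate 3 it was 1.88 and 0.0612. Even in 3D these lines stood far below HT29, whose mean was 31.3 ± 4.75 CPM (SD, n = 3) against 0.364 ± 0.166 in LS513 and 0.276 ± 0.187 in LS174T.

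PTGS2, the inducible cyclooxygenase, did not move in 1 direction. HT29 had the highest levels, at 12.2, 10.5 and 18.5 CPM in 2D and 20.3, 24.7 and 13.8 CPM in 3D. LS174T followed with 1.94, 3.10 and 2.34 CPM in 2D and 3.22, 4.56 and 4.21 CPM in 3D. LS513 had 27, 28 and 30 reads in 2D (0.869, 0.846 and 0.950 CPM) and only 6, 6 and 14 reads in 3D (0.211, 0.213 and 0.485 CPM). HCT116 stayed between 0.481 and 0.702 CPM in all 6 libraries. The groups overlapped in HT29 and HCT116 and were separate in LS513 and LS174T. PTGS2 fell in LS513 3D to 0.346 of its 2D level (log2 difference -1.53 ± 0.38, adjusted p = 0.00514) and rose 1.62-fold in LS174T 3D (0.69 ± 0.24, adjusted p = 0.0428). The HT29 difference was 0.52 ± 0.22 (adjusted p = 0.0593), and it lay near the threshold, being called in 13 of its 30 alternatives. Without 2D replicate 3 it was 0.81 (adjusted p = 0.0078), and without 3D replicate 4 it was 0.76 (adjusted p = 0.0093). The LS174T call was lost in 10 of its 30 alternatives, with an adjusted p of up to 0.167 when 2D replicate 1 was left out. In HCT116 the difference was 0.11 ± 0.35, with a 95% interval of -0.62 to 0.83.

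The balance of the cyclooxygenases was set per kilobase of exon within each library, since levels of different genes compare only after length is taken into account. PTGS2 made up 97.9% ± 0.843 (SD, n = 3) of PTGS1 and PTGS2 together in LS174T 2D, 94.0% ± 0.299 in LS513 2D, 48.1% ± 4.37 in HT29 2D and 9.35% ± 1.27 in HCT116 2D. In 3D the shares were 94.2% ± 3.35, 47.6% ± 24.1, 40.5% ± 9.87 and 5.75% ± 1.97 in the same order of lines. In LS513 3D the share was 33.7% to 75.5%, below all 3 of its 2D libraries, and its highest value came from replicate 3. That library held 5 PTGS1 reads where the other LS513 3D libraries held 13 each, and 14 PTGS2 reads where they held 6 each.

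**Figure D2:**
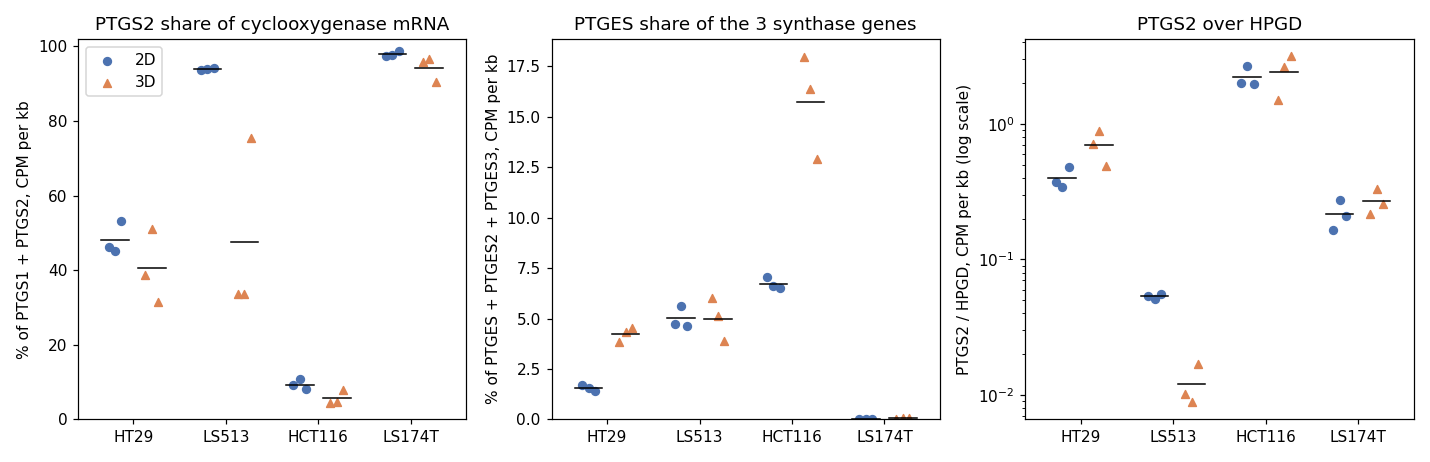
PTGS2 as a percentage of both cyclooxygenases, PTGES as a percentage of the 3 synthase genes, and PTGS2 over HPGD on a log scale, all from CPM per kilobase of exon, 1 point per library with a line at the group mean. HCT116 stood lowest for the first measure, at 4.51% to 10.7%, and highest for the other two, with PTGS2 over HPGD at 1.49 to 3.15.

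The terminal synthases split into PTGES, the inducible microsomal enzyme, and PTGES2 and PTGES3, a membrane-associated and a cytosolic protein, the latter also known as the HSP90 co-chaperone p23. PTGES was highest in HCT116, at 28.0, 25.5 and 27.9 CPM in 2D and 54.3, 47.4 and 42.0 CPM in 3D. HT29 had 6.52, 6.50 and 6.41 CPM in 2D and 10.8, 11.9 and 12.3 CPM in 3D. In both lines the groups were separate, and PTGES rose 1.77-fold in HCT116 (log2 difference 0.82 ± 0.13, adjusted p = 9.20e-05) and 1.801-fold in HT29 (0.85 ± 0.15, adjusted p = 8.53e-05). LS513 had 15.1, 19.0 and 14.8 CPM in 2D and 16.2, 14.2 and 12.4 CPM in 3D, which overlapped (-0.19 ± 0.14, adjusted p = 0.351). In LS174T it was barely present, with 1, 2 and 4 reads in 2D and 4, 8 and 5 reads in 3D, a ratio of 2.47 with a counting interval of 0.972 to 7.04 (adjusted p = 0.0760).

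By group means PTGES2 was the steadiest gene of the set. Its group means lay between 111 CPM in HCT116 3D and 148 CPM in HT29 3D, and its 3D effect passed the test in none of the lines (log2 differences from -0.16 to 0.19, adjusted p from 0.278 to 1.0). In HT29, however, its 2D libraries (126 to 136 CPM) lay below its 3D libraries (140 to 157 CPM). The fit of HT29 alone called this difference (0.20, adjusted p = 0.0360). The libraries of LS174T 3D ranged from 114 to 184 CPM. PTGES3 was the most abundant gene of the 10, also per kilobase, in every group. It fell in HT29 from 531, 594 and 671 CPM to 327, 296 and 299 CPM (-0.96 ± 0.11, adjusted p = 3.67e-07), and in HCT116 from 522, 525 and 556 CPM to 320, 322 and 370 CPM (-0.66 ± 0.11, adjusted p = 6.49e-05). All 3D libraries were below all 2D libraries in these lines. In LS174T it was 354, 395 and 413 CPM in 2D and 353, 383 and 398 CPM in 3D, a difference of -0.03 ± 0.11 with a 95% interval of -0.25 to 0.18. In LS513 it was 409, 438 and 416 CPM in 2D and 327, 322 and 431 CPM in 3D (-0.22 ± 0.11, adjusted p = 0.130); without LS513 3D replicate 3 the difference was -0.37 (adjusted p = 0.00724). The processed pseudogene PTGES3P1 drew 95 to 216 reads in a library, 1.17% of the PTGES3 reads over all libraries. Reads that matched the genome more than once were removed upstream, so reads shared with these copies are missing and the PTGES3 level is uncertain to that extent. PTGER4 also has processed copies, which drew at most 3 reads in a library.

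PTGES and PTGES3 therefore moved in opposite directions in HT29 and in HCT116. As a share of the 3 synthase genes per kilobase, PTGES went from 1.55% ± 0.156 (SD, n = 3) in 2D to 4.24% ± 0.356 in 3D in HT29 and from 6.73% ± 0.300 to 15.8% ± 2.58 in HCT116. In LS513 it was 5.005% ± 0.551 in 2D and 4.996% ± 1.07 in 3D.

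SLCO2A1, the prostaglandin transporter, was detected in none of the groups. All 12 libraries of HT29 and LS174T held 0 reads, as did the 3 libraries of LS513 2D. LS513 3D held 6, 7 and 1 reads, HCT116 2D held 0, 2 and 2, and HCT116 3D held 1, 4 and 4. The gene did not pass the filter on low counts and has no test, and no fold is given.

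HPGD, which oxidises prostaglandin E2 to an inactive form, was detected in all 8 groups and was far higher in the other lines than in HCT116. HT29 had 34.8, 32.5 and 40.5 CPM in 2D and 29.8, 29.4 and 29.8 CPM in 3D. LS513 had 16.9, 17.3 and 17.8 CPM in 2D and 21.7, 25.2 and 30.04 CPM in 3D, and LS174T had 12.4, 11.9 and 11.8 CPM in 2D and 15.6, 14.4 and 17.3 CPM in 3D. In these 3 lines the 2D and 3D libraries were separate, with 3D lower in HT29 and higher in the others. HCT116 held only 7 to 12 reads in a library, 0.234 to 0.399 CPM. HPGD rose 1.48-fold in LS513 (log2 difference 0.57 ± 0.12, adjusted p = 0.00105) and 1.31-fold in LS174T (0.39 ± 0.12, adjusted p = 0.0221). The HT29 difference was -0.28 ± 0.12 (adjusted p = 0.0608). Without HT29 2D replicate 3 it was -0.15 (adjusted p = 0.362), and it was called in 1 of 30 alternatives. The LS174T call was lost in 7 of 30 alternatives, among them counts scaled by library totals, where the difference was 0.27 (adjusted p = 0.135).

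PTGS2 over HPGD, again per kilobase, set the mRNA of the inducible cyclooxygenase beside that of HPGD in the same library. This ratio leaves out PTGS1 and is no measure of prostaglandin made or broken down. PTGS2 over HPGD was 0.396 ± 0.0737 (SD, n = 3) in HT29 2D and 0.694 ± 0.199 in HT29 3D. These groups only just missed each other, with 0.479 the highest value in 2D and 0.486 the lowest in 3D. The ratio was not tested, and neither PTGS2 nor HPGD was called in HT29. In LS513 PTGS2 over HPGD was 0.0539 ± 0.00228 in 2D and 0.0120 ± 0.00432 in 3D, without overlap, and every LS513 3D library lay below every other library. HCT116 was the only line where PTGS2 exceeded HPGD, with 2.22 ± 0.403 in 2D and 2.42 ± 0.849 in 3D, both from low counts. LS174T had 0.215 ± 0.0539 in 2D and 0.268 ± 0.0581 in 3D, which overlapped.

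The receptors were detected in 3 lines or fewer. PTGER4, the EP4 receptor, was at 20.8, 23.1 and 20.9 CPM in LS174T 2D and 24.2, 17.8 and 20.8 CPM in LS174T 3D. It was at 2.54, 3.08 and 2.50 CPM in HCT116 2D and 2.93, 3.40 and 2.47 CPM in HCT116 3D, and at 2.64, 2.84 and 2.82 CPM in LS513 2D and 1.97, 1.81 and 1.66 CPM in LS513 3D. HT29 held 0 reads in all 3 libraries of 2D and 2, 1 and 1 reads in 3D, so the line with the most PTGS1, PTGS2 and PLA2G4A had no detected PTGER4. PTGER4 fell in LS513 3D (log2 difference -0.61 ± 0.16, adjusted p = 0.00896), where the groups were separate. In LS174T and HCT116 the groups overlapped, with differences of -0.04 ± 0.13 and 0.11 ± 0.15. Against the floor of 3 counts in each library, PTGER4 was at least 175-fold higher in LS174T 2D than in HT29 2D, and at least 22.4-fold and 21.9-fold higher in LS513 and HCT116.

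PTGER2, the EP2 receptor, had 0 reads in all 12 libraries of HT29 and LS513. LS174T had 2.60, 2.96 and 2.73 CPM in 2D and 1.41, 1.28 and 1.63 CPM in 3D, and HCT116 had 6, 17 and 14 reads in 2D and 10, 11 and 16 reads in 3D. The LS174T groups were separate, and PTGER2 fell there to 0.522 of its 2D level (log2 difference -0.94 ± 0.27, adjusted p = 0.0245). That call was lost when any of 5 of the 6 LS174T libraries was left out, with the difference between -0.85 and -0.98 and an adjusted p of 0.0575 to 0.102. PTGER4 made up 83.0% ± 0.265 (SD, n = 3) of both receptors per kilobase in LS174T 2D and 90.0% ± 1.33 in LS174T 3D.

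**Figure D3:**
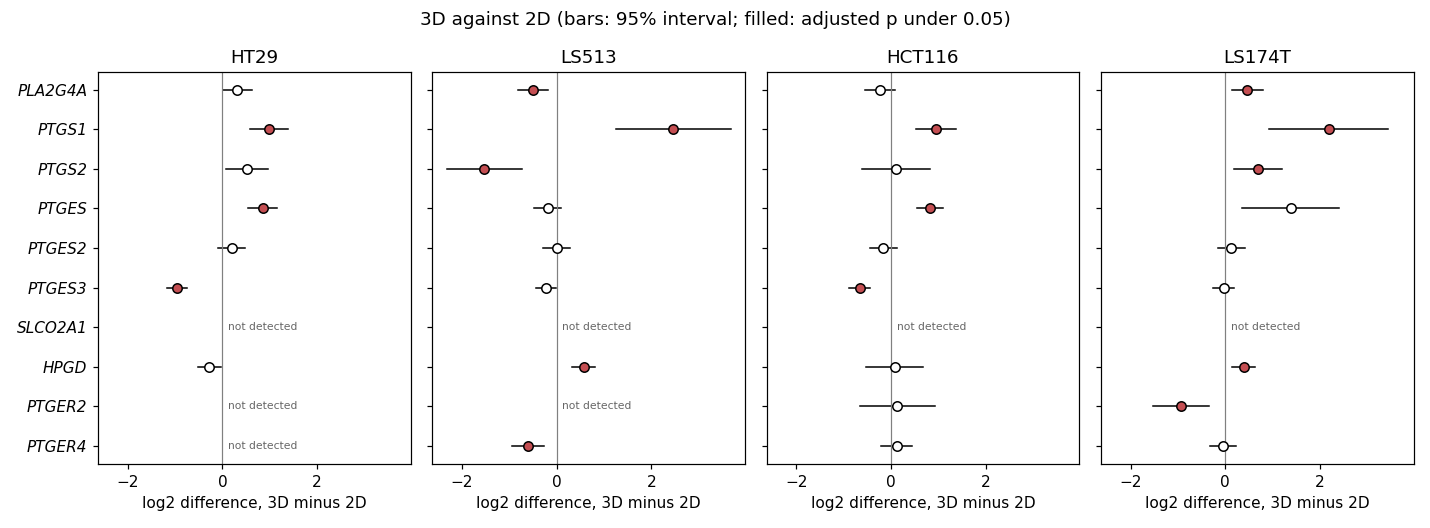
Log2 difference of 3D minus 2D for each gene and line from edgeR, with 95% intervals; filled points have an adjusted p under 0.05, and combinations without a detected group are marked. PTGS1 lies to the right of 0 in all 4 panels, while PTGS2 lies at -1.53 in LS513 and at 0.69 in LS174T.

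Counted over the set, 9 of the 10 genes passed the filter and 33 of 40 gene and line combinations had a detected group; 16 of these were called, 10 higher and 6 lower in 3D. In HT29 2 genes were higher (PTGS1 and PTGES; 21.1% of all 19387 genes tested were higher) and 1 was lower (PTGES3; 19.6% lower). In LS513 2 were higher (PTGS1 and HPGD; 13.7% of all genes) and 3 lower (PLA2G4A, PTGS2 and PTGER4; 9.9%). In HCT116 2 were higher (PTGS1 and PTGES; 16.8%) and 1 lower (PTGES3; 12.3%). In LS174T 4 were higher (PLA2G4A, PTGS1, PTGS2 and HPGD; 13.1%) and 1 lower (PTGER2; 9.15%). With only 9 genes tested, the counts of 1 or 2 genes lie near these backgrounds and say nothing particular about the set. The larger counts in LS513 and LS174T are no result about the set either, since the genes were chosen with earlier results of these data known. Of the 5 calls in LS174T, 0 were kept in every alternative. The LS174T 3D libraries also differed most from each other. Their chi-square per degree of freedom for equal levels had a median of 11.4 over genes, against 2.2 to 6.4 in other groups. The TMM factor of LS174T 3D replicate 2 was 0.933, against 1.04 in replicate 1 and 1.06 in replicate 3. The median log2 difference over the 9 tested genes was 0.31 for HT29, -0.19 for LS513, 0.11 for HCT116 and 0.39 for LS174T, beside medians from 0.0 to 0.02 over all genes tested. Scaling by library totals alone lowered the share of higher calls among all called genes from 58.0% to 36.0% in LS513, from 57.7% to 42.3% in HCT116 and from 58.8% to 37.0% in LS174T.

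**Figure D4:**
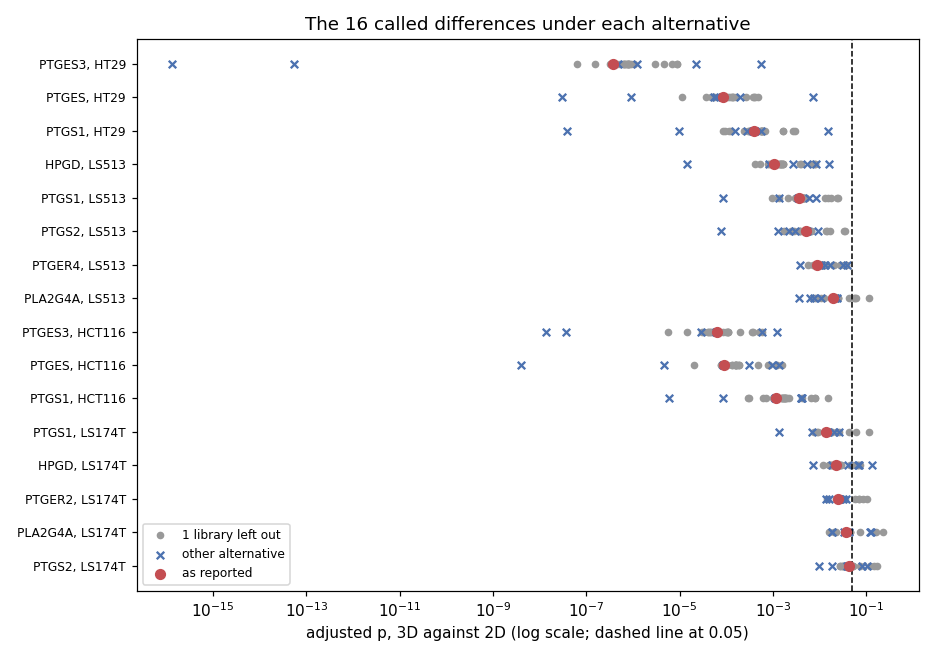
Adjusted p of the 16 called differences as reported (red), with 1 library left out (grey) and under the other alternatives (blue crosses), on a log scale with a dashed line at 0.05. The calls in HT29 and HCT116 stayed to the left of the line, whereas each of the 5 calls in LS174T crossed it at least once.

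Whether the effect of 3D growth differed between lines was tested for each gene over the 4 lines together. It differed for 6 of the 9 genes tested, against 17.1% of all genes. The genes were chosen with earlier results of these data known, so this share is no result about the set. For PTGS2 the joint test gave an adjusted p of 0.00543, and the 3D effect in HT29 minus that in LS513 was 2.05 ± 0.44 on the log2 scale (adjusted p = 0.00262), while LS513 minus LS174T was -2.23 ± 0.45 (adjusted p = 0.00449). For PTGES the joint adjusted p was 0.000729, with HT29 minus LS513 at 1.04 ± 0.20 (adjusted p = 0.000953) and LS513 minus HCT116 at -1.01 ± 0.19 (adjusted p = 0.00217). For PTGES3 it was 0.000247, with HT29 minus LS513 at -0.74 ± 0.15 (adjusted p = 0.00149) and HT29 minus LS174T at -0.93 ± 0.15 (adjusted p = 0.000339). HCT116 minus LS174T passed as well for this gene, at -0.63 ± 0.15 (adjusted p = 0.0126).

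For HPGD the joint adjusted p was 0.00353, with HT29 minus LS513 at -0.84 ± 0.16 (adjusted p = 0.0011) and HT29 minus LS174T at -0.67 ± 0.17 (adjusted p = 0.0151). For PLA2G4A it was 0.00615, with HT29 minus LS513 at 0.81 ± 0.21 (adjusted p = 0.0129) and LS513 minus LS174T at -0.96 ± 0.22 (adjusted p = 0.0112). PTGER4 passed the joint test as well (adjusted p = 0.0129), but none of its 6 pairs of lines did. With HT29 left out, in which it was not detected, its adjusted p was 0.0887, an alternative chosen after seeing the data. HPGD was not called in that test either (adjusted p = 0.571). PTGS1, which rose in all 4 lines, gave a joint adjusted p of 0.168 and PTGES2 gave 0.515. PTGER2 gave 0.399, but it had 0 reads in every library of HT29 and LS513, so the joint test cannot compare the 4 lines for it. Only HCT116 minus LS174T could be estimated for PTGER2, at 1.07 ± 0.46 (adjusted p = 0.255).

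PTGS1, PTGES, HPGD and PTGER2 kept the same order of lines by mean level in both growth conditions. PTGS1 ran from HT29 through HCT116 to LS513 and LS174T, PTGES from HCT116 through LS513 and HT29 to LS174T, and HPGD from HT29 through LS513 and LS174T to HCT116. For PTGES3 the order was the opposite in 3D: HT29 was highest in 2D (599 CPM, against 387 CPM in LS174T, the lowest) and lowest in 3D (307 CPM, against 378 CPM in LS174T, the highest), and this pair was called in both. PLA2G4A, PTGS2, PTGES2 and PTGER4 each had 1 pair of neighbors in the other order in 3D. Some neighbors were not called apart in 3D. HPGD differed between HT29 and LS513 in 2D (log2 difference 1.05 ± 0.12, adjusted p = 3.82e-08) but was 0.21 ± 0.12 apart in 3D (adjusted p = 0.122). PTGES differed between LS513 and HT29 in 2D (1.33 ± 0.14, adjusted p = 2.45e-08) and was 0.29 ± 0.14 apart in 3D (adjusted p = 0.0741). PTGER4 went the other way, with LS513 and HCT116 0.03 ± 0.15 apart in 2D (adjusted p = 0.886) and HCT116 higher by 0.69 ± 0.16 in 3D (adjusted p = 0.000698). PTGS2 likewise was called between HCT116 and LS513 in 3D (1.06 ± 0.41, adjusted p = 0.0240) and not in 2D, where LS513 was 0.58 ± 0.33 higher (adjusted p = 0.128). The tests of these shifts are the pairwise ones of the 3D effect, which passed for HPGD and PTGES and missed the threshold for PTGER4 and PTGS2 between LS513 and HCT116 (adjusted p = 0.0747 and 0.0827).

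Of the 9 genes tested, the number that differed between a pair of lines in 2D was 7 for HT29 and LS513 (60.6% of all genes), 7 for HT29 and HCT116 (68.8%), 8 for HT29 and LS174T (64.6%), 6 for LS513 and HCT116 (68.3%), 6 for LS513 and LS174T (57.6%) and 8 for HCT116 and LS174T (68.3%). In 3D it was 4 for HT29 and LS513 (61.9%), 8 for HT29 and HCT116 (68.5%), 8 for HT29 and LS174T (65.5%), 6 for LS513 and HCT116 (68.5%), 5 for LS513 and LS174T (60.9%) and 7 for HCT116 and LS174T (67.2%). PTGES2 was called in none of the 6 pairs in 2D and in 2 in 3D, both with HCT116. PTGES3 differed between HCT116 and LS513 in 2D (0.34 ± 0.11, adjusted p = 0.00577), while its neighbors in 3D, from LS174T through LS513 and HCT116 to HT29, were 0.07 to 0.13 apart on the log2 scale and not called.

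The other prostanoid genes, 23 in all, include further receptors, synthases and prostaglandin reductases, and 17 of them were tested. PTGER3, PTGFR, HPGDS and PTGIS never exceeded the floor. HT29 3D had 3 of them higher and 6 lower, LS513 4 and 1, HCT116 1 and 1, and LS174T 3 and 2. Of all genes tested, 21.1% were higher and 19.6% lower in HT29, 13.7% and 9.9% in LS513, 16.8% and 12.3% in HCT116, and 13.1% and 9.15% in LS174T, so most of these counts lie near the background. The median log2 difference of the tested genes was -0.40, 0.01, 0.00 and 0.23 in the same order of lines. PTGDR2, a prostaglandin D2 receptor, rose in HT29 from 0.126 to 1.03 CPM (adjusted p = 0.000866). Its HT29 2D libraries held 0 to 10 reads, so the size is poorly fixed: the log2 difference was 2.84, and 2.37 to 5.47 over the alternatives, with the high values under the replicate block and without 2D replicate 2. PTGDR, the other receptor for prostaglandin D2, fell in LS174T from 24.3 to 12.5 CPM (log2 difference -0.96 ± 0.19, adjusted p = 0.00352). AKR1C3, an aldo-keto reductase that acts on prostaglandins and steroids, rose in HCT116 from 0.751 to 3.84 CPM (adjusted p = 3.10e-05) and in LS174T from 129 to 242 CPM (adjusted p = 0.00519). It was also called higher in LS513. AKR1C2 fell in HT29 from 52.4 to 28.99 CPM (adjusted p = 0.0301) and was called higher in LS174T. However, it is nearly identical to AKR1C1, and reads that match both are missing because they were removed upstream. CBR3, a carbonyl reductase, rose in LS513 from 0.711 to 1.76 CPM (adjusted p = 0.00789). PTGFRN, a membrane protein that binds the prostaglandin F receptor, was the called gene with the largest decrease in LS513 (130 to 101 CPM, adjusted p = 0.0362) and HCT116 (112 to 81.6 CPM, adjusted p = 0.00737). It was also called lower in HT29 and LS174T.

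Of 23 genes of arachidonate release and the lipoxygenase branch 19 were tested, of which 4 were higher and 1 lower in HT29 3D, 3 and 0 in LS513, 6 and 0 in HCT116, and 4 and 1 in LS174T. Beside them stand 21.1% higher and 19.6% lower over all genes in HT29, 13.7% and 9.9% in LS513, 16.8% and 12.3% in HCT116, and 13.1% and 9.15% in LS174T. Their median log2 difference was 0.33, 0.05, 0.37 and 0.05, and PLA2G5 and ALOX12 never exceeded the floor. ALOX5, the lipoxygenase that starts leukotriene synthesis, rose in HCT116 from 2.25 to 13.5 CPM (adjusted p = 4.80e-07) and in LS513 from 7.59 to 14.9 CPM (adjusted p = 0.00743). PLA2G4F, a relative of PLA2G4A, rose in HT29 from 4.82 to 24.6 CPM (adjusted p = 1.42e-10), and PLA2G6, a calcium-independent phospholipase, rose in LS174T from 6.07 to 11.0 CPM (adjusted p = 0.00315). PLA2G6 was also called higher in LS513 and HCT116. The secreted phospholipases PLA2G2A in LS174T (41.7 to 25.96 CPM, adjusted p = 0.0330) and PLA2G12A in HT29 (51.9 to 43.2 CPM, adjusted p = 0.0351) fell.

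The receptors PTGER2 and PTGER4 signal through cyclic AMP, and 12 genes known to respond to it or to transmit it were all tested. Stress and growth factors also induce several of these genes. HT29 3D had 3 of them higher and 1 lower, LS513 3 and 1, HCT116 4 and 1, and LS174T 4 and 0. The shares over all genes were again 21.1% and 19.6%, 13.7% and 9.9%, 16.8% and 12.3%, and 13.1% and 9.15%. Both counts in HT29 and the lower counts in the other lines lie near or below them. The list was chosen with earlier results of these data known, so the remaining counts are no result about it. The median log2 difference of the 12 genes was 0.19, 0.12, 0.54 and 0.61, beside 0.00, 0.00, 0.01 and 0.02 over all genes tested. ATF3, a stress-induced transcription factor, rose in HT29 from 3.21 to 16.9 CPM (adjusted p = 8.40e-05) and in LS513 from 8.88 to 54.5 CPM (adjusted p = 2.23e-05). It was also called higher in HCT116 and LS174T. NR4A3, a nuclear receptor, fell in LS513 from 5.16 to 0.901 CPM (adjusted p = 2.62e-06), while its relative NR4A2 rose in HCT116 from 4.37 to 10.7 CPM (adjusted p = 0.00251). CREB1, the cyclic AMP response factor, fell in HT29 from 32.9 to 24.2 CPM (adjusted p = 0.0259) and in HCT116 from 30.7 to 23.1 CPM (adjusted p = 0.0468). FOSB, an immediate early gene, rose in LS174T from 1.75 to 27.8 CPM (adjusted p = 0.00913), with an SD of 40.8 CPM over the 3 libraries in 3D, and without 3D replicate 2 the log2 difference was 1.29 in place of 3.98 and not called. Of the 21 changes given with an adjusted p in these lists 11 were called in every alternative. Those of PLA2G12A in HT29 and CREB1 in HCT116 were lost most often, in 16 and 12 of 30.

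The tested genes whose log2 CPM followed a member most closely over the 24 libraries are given as a description, since libraries of a line share much of their level. They are given for the 8 members that averaged 1 CPM or more, which leaves out PTGER2 and SLCO2A1. For PTGS2 they were C11orf21 (Pearson r = 0.971) and SLITRK6 (0.965), for PTGS1 ZNF467 (0.985), CSPG4 (0.978) and CDKN2A (0.976), and for PTGES DMKN (0.988), MDK (0.985) and DBN1 (0.984). HPGD was followed by CHIC1 (0.994), DTX4 (0.992) and SARM1 (0.991), PTGER4 by TSPAN7 (0.987), FZD1 (0.985) and NUCB2 (0.983), and PLA2G4A by ADAM8 (0.953), RBBP7 (0.951) and TSR2 (0.949). The values were lower for PTGES3 (MTREX 0.912, TEAD4 0.898, XPO1 0.879) and PTGES2 (PRELID1 0.870, MRPS15 0.825, CIAO2A 0.821), which differed least between lines. Within the set, PTGER2 and PTGER4 had r = 0.794, PLA2G4A and PTGS2 had 0.711, and PLA2G4A and PTGER4 had -0.914.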

How the data were processed

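PolyA+ RNA was sequenced with a strand-specific kit, and the authors deposited raw read counts per gene for each of 191 technical replicates (8 per library, except 7 for HT29 3D replicate 4). The submitters' processing notes name bcl2fastq 2.18.0.12, Trim Galore 0.4.1, STAR, HTSeq 0.5.3 and the hg19 build, whereas the study's methods name Ensembl release 91, a GRCh38 annotation. Identifiers were matched to GENCODE 29, so positions and exon lengths are those of its GRCh38 gene models. Multi-mapped reads were removed by the authors, and the strand setting of the counting is not given in the sources used here. Technical replicates were summed per library. Genes were filtered with filterByExpr and tested with edgeR 4.0.16 (quasi-likelihood, two-sided, TMM scaling, 1 coefficient per group, all 24 libraries), which left 19387 genes. P-values were adjusted by Benjamini-Hochberg over all genes tested and called under 0.05. Ratios of genes near the floor carry exact binomial intervals. These ratios pool the reads of a group and are scaled by library totals, so the intervals leave out the spread between libraries. The adjusted p beside such a ratio is that of the edgeR test. Alternatives were DESeq2 1.42.0, its size factors, library totals, no filter beyond 1 count, the replicate number as a block, fits within a line, and leaving out each library; a joint test without HT29 was added after seeing the data. The scripts were tested on simulated data. All 10 genes are named, together with the called gene of largest increase and decrease per line in each further list (where the higher group averaged 1 CPM or more) and the 3 genes most like in level to each of the 8 members that averaged 1 CPM or more, of which 1 is not reported here. The genes and lists were chosen with earlier results of these data known.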

Additional observations from a re-analysis of the deposited data

Results flagged for a closer look

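The effect of 3D growth differed between the 4 cell lines for 6 genes, by the joint quasi-likelihood test of the line by growth interaction. The adjusted p was 0.000247 for PTGES3, which fell in HT29 and HCT116. It was 0.000729 for PTGES, which rose in HT29 and HCT116, and 0.00353 for HPGD, which rose in LS513 and LS174T. It was 0.00543 for PTGS2, which fell in LS513 and rose in LS174T, and 0.00615 for PLA2G4A, which also fell in LS513 and rose in LS174T. It was 0.0129 for PTGER4, which fell in LS513. With HT29 left out of the joint test, an alternative chosen after seeing the data, the adjusted p was 0.571 for HPGD and 0.0887 for PTGER4, and between 0.00191 and 0.0187 for the other 4.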

How the results depend on the processing

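Of the 16 called differences, 10 were called in every alternative that gave a value: all 3 in HT29, all 3 in HCT116, 4 of 5 in LS513 and 0 of 5 in LS174T. None of the 16 changed direction. Genes higher in LS174T 3D numbered 4, against 1 with library totals and 0 when only the libraries of that line were fitted. In the fit of LS174T alone PTGS1 gave no value. Leaving out 1 library gave 0 to 4 higher in LS174T, with 0 without 2D replicate 3 and 1 without 2D replicate 1 or 3D replicate 3. Genes lower in LS174T ranged from 0 to 1 on leaving out 1 library, with 1 only without 3D replicate 3 among its own. Fitting only the libraries of a line gave 4 higher and 2 lower in HT29, and 1 higher in LS513, where PTGS1 did not pass the filter. Leaving out 1 library gave 2 to 4 higher in HT29, with 4 without HCT116 3D replicate 1 or 3 or LS174T 3D replicate 2, and 1 to 2 lower in HCT116, with 2 without its 3D replicate 3. It gave 2 to 4 lower in LS513. Over all genes, 4305 were called in LS174T, against 1648 in the fit of that line alone. The number of genes whose 3D effect differed between lines was 5 to 6 over the other fits of all libraries, PTGER4 being the gene lost with all genes and with the replicate block, and 4 without HT29.

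Differences that changed sign were small and never called. PTGES2 in LS513 was 0.001 as reported, -0.135 with library totals, -0.003 with all genes, -0.006 with the replicate block and -0.012 in the line alone, and -0.109 to 0.077 on leaving out 1 library. With library totals HPGD in HCT116 was -0.028 and PTGES2 in LS174T -0.016. On leaving out 1 library, the log2 difference in HCT116 was -0.047 to 0.192 for PTGS2, -0.205 to 0.204 for HPGD, -0.201 to 0.379 for PTGER2 and -0.024 to 0.217 for PTGER4. In LS174T it was -0.101 to 0.257 for PTGES2, -0.095 to 0.015 for PTGES3 and -0.162 to 0.068 for PTGER4.

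Same-numbered 2D and 3D libraries correlated at -0.146 to 0.094 over 11 pairs in their deviations from group means. Differently numbered pairs ran from -0.229 to 0.221. No effect shared by number was seen, but with 3 libraries in a group the check cannot exclude pairing. With the replicate block, 3 genes were higher in HT29, PTGS2 being the added call (0.57, adjusted p = 0.0419), and the joint test of PTGER4 gave an adjusted p of 0.107. Depth limits SLCO2A1, PTGER2 in HCT116 and the low PTGS1 and PTGES lines, where 17 or fewer reads stood behind a library.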
